A study of Mus musculus with 8 samples.

Results

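AMP-activated protein kinase (AMPK) and the mechanistic target of rapamycin complex 1 (mTORC1) form the 2 arms by which a cell matches growth to its energy supply, and the transcripts of their core subunits were followed here in mouse muscle stem cells labelled wild-type or Cox10-/-. The 10 genes were chosen by name from 17847 genes in the table: the AMPK subunit genes Prkaa1, Prkaa2, Prkab1, Prkab2, Prkag1 and Prkag2, the mTORC1 genes Mtor and Rptor, and Tsc1 and Tsc2. All 10 were measured, and all 10 passed the filter on low values, with no library at the floor of the table.

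AMPK is a trimer of a catalytic α subunit, a β subunit that scaffolds the complex and binds glycogen, and a γ subunit that senses the ratio of AMP and ADP to ATP. When ATP falls, the upstream kinase LKB1 activates AMPK, which phosphorylates Raptor and TSC2. The TSC complex switches off the GTPase Rheb and so restrains mTORC1, the kinase complex that promotes protein and lipid synthesis and blocks autophagy. In muscle stem cells, mTORC1 is known for driving the growth that accompanies exit from quiescence. The data are transcript levels, and no kinase activity or phosphorylation was measured.

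Cells came from the skeletal muscle of C57Bl/6 mice, with 4 libraries labelled wild-type and 4 labelled Cox10-/-. The Cox10-/- animals carried a floxed Cox10 allele and a Pax7-Cre (ERT2) driver, a recombinase active in Pax7-expressing cells after tamoxifen. The labels give the tamoxifen dose, 200 mg/kg once into the peritoneum, for the wild-type samples too, with cells taken 2 days later. Whether wild-type animals carried Cre or the floxed allele, and the age of the adult animals, are not in the labels. Sorting kept CD34+ cells and discarded cells positive for CD31, CD45, Sca1 or the dead-cell stain DAPI. No label says that each library came from its own animal, so p-values measure the spread between these libraries.

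Reads counted in genes, recovered from the steps of the values, numbered 1693349 to 4650051 per library. Values are log2 CPM, the base-2 logarithm of the reads of a gene scaled to a common library total, and a change is the mean of Cox10-/- minus that of wild-type on this scale. The 4 values of a genotype are listed in the order of replicates 1 to 4. Cox10, the gene of the mitochondrial enzyme that makes the precursor of haem A, stood at 3.98, 3.42, 4.12 and 3.69 log2 CPM in wild-type and at 3.51, 3.69, 3.49 and 2.05 in Cox10-/-. Its change of -0.62 ± 0.34 (SE, n = 4 per genotype) did not pass the test (limma adjusted p = 0.246), with an exact two-sided permutation p of 0.2 where 0.0286 is the smallest possible. Without Cox10-/- replicate 4 the change was -0.24. The deleted exon is not named in the labels, and reads of exons that remain can count towards these values. Libraries numbered 1 and 2, and those numbered 3 and 4, of a genotype correlated at 0.97 to 0.981 across genes, and the other pairs at 0.958 to 0.972. What these share is not in the labels. Replicates 1 and 2 of both genotypes are called the first set below, and replicates 3 and 4 the second set. The difference between genotypes is also given within each as a description. No label ties the wild-type libraries of a set to its Cox10-/- libraries.

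Of 8 markers of muscle stem cells, 6 fell, and their summed level went from 1874 to 2464 CPM in wild-type to 1066 to 1315 CPM in Cox10-/-. Pax7 itself fell by 1.29 ± 0.11. Fewer cells of a type and less RNA per cell cannot be told apart in such libraries. Markers of fibro-adipogenic cells, which the Sca1 gate should remove, summed to 3451 to 4619 CPM and 3496 to 7287 CPM, with 2 rises and 1 fall of 8, and Pdgfra rose by 0.84 ± 0.19. Mural markers (2 rises and 3 falls of 8) summed to 1285 to 1498 and 1084 to 1398 CPM. Endothelial markers (2 rises of 8, Pecam1 by 1.39 ± 0.37) summed to 254 to 296 and 312 to 399 CPM, and Schwann cell markers (1 rise of 6) to 309 to 600 and 379 to 583 CPM. Muscle fibre markers (2 rises of 8) summed to 90 to 235 and 131 to 347 CPM, and the 4 immune markers measured (no call) to 26 to 35 and 28 to 47 CPM. The other 4 immune markers, among them Ptprc, which encodes the CD45 of the sort, had no row under their symbols in the table. No measured marker was at 0 in every library. The part of these cells in the results below was not tested.

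In Cox10-/- cells 1 of the 10 genes rose, Tsc1, and 1 fell, Prkab2, while 8 did not pass the test. That is 20% of the genes, against 16.1% of all 17801 genes tested (7.58% higher and 8.51% lower in Cox10-/-), so the share called is near the background. Their median change was 0.02, against -0.05 over all genes tested. Genotypes did not overlap in 1 of the 10, Tsc1, where 21.1% of all genes showed no overlap (9.3% higher and 11.8% lower in Cox10-/-). At an unadjusted p under 0.05, 4 of the 10 were counted, with Tsc2 and Rptor added, against 31% of all genes tested.

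**Figure D1:**
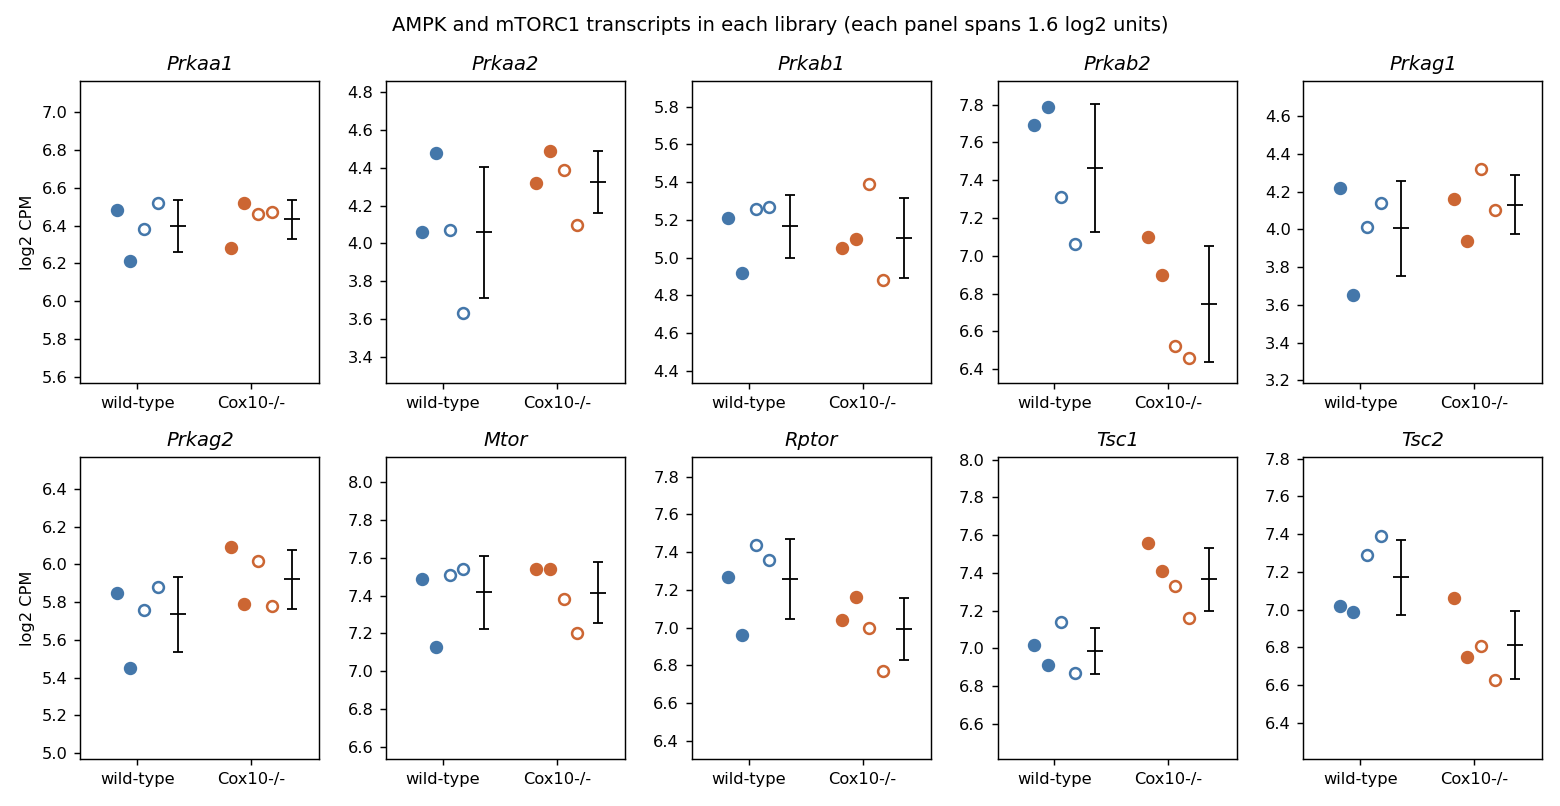
Level of each gene in each library, in log2 CPM on the y axis; filled points are replicates 1 and 2, open points replicates 3 and 4, and the bar beside them is the mean with the SD over 4 libraries. The mean of Prkab2 is lower and that of Tsc1 higher in Cox10-/-, and the genotypes overlap in all of the 10 genes except Tsc1.

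The β2 subunit gene Prkab2, one of a pair of genes for the scaffold of AMPK, was the member with the smallest p. It stood at 7.69, 7.79, 7.31 and 7.06 log2 CPM in wild-type and at 7.1, 6.9, 6.52 and 6.46 in Cox10-/-. Replicate numbers 1 and 2 were the higher ones in both genotypes, and the lowest wild-type library lay just below the highest Cox10-/- library. Prkab2 fell by 0.72 ± 0.18 (SE, 95% interval -1.1 to -0.33, limma adjusted p = 0.0168), to 60.8% of wild-type. The first set gave -0.74 and the second set -0.69, a fall of about the same size within each. Its call was lost without wild-type replicate 1 (limma adjusted p = 0.0566), without Cox10-/- replicate 3 (0.0577) and without the 2 shallowest libraries (0.0773), and the change lay between -0.85 and -0.51 in every alternative fit. It was also lost with the mean of each set as 1 sample, leaving 2 means per genotype (0.0836), and with a variance prior without a trend (0.0659). The call held with a term for the 2 sets (limma adjusted p = 0.00011) and with the replicate number as a block (0.000434).

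The β1 subunit gene Prkab1 is its counterpart, widely expressed where β2 is known for its abundance in skeletal muscle. Prkab1 was at 5.21, 4.92, 5.26 and 5.27 log2 CPM in wild-type and at 5.05, 5.1, 5.39 and 4.88 in Cox10-/-. The genotypes overlapped throughout, with a change of -0.06 ± 0.15 (95% interval -0.38 to 0.26, limma adjusted p = 0.816). Of the 8 markers of muscle fibres, Ckm rose by 1.54 ± 0.39 and Tnnt3 by 1.31 ± 0.24, and 6 did not pass, among them Acta1 at 0.45 ± 0.33 (limma adjusted p = 0.387). Their part in the Prkab2 value was not tested.

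Tsc1 encodes the partner that stabilises TSC2 and thereby the brake on Rheb. It was at 7.02, 6.91, 7.14 and 6.87 log2 CPM in wild-type and at 7.56, 7.41, 7.33 and 7.16 in Cox10-/-. All 4 Cox10-/- libraries lay above all 4 wild-type libraries, the closest by a narrow margin. Tsc1 rose by 0.38 ± 0.1 (95% interval 0.15 to 0.61, limma adjusted p = 0.0275), to 130% of wild-type, by 0.52 within the first set and 0.24 within the second set. The call did not hold in 6 of the 8 fits that leave out 1 library, those without wild-type replicates 1, 2 or 4 or Cox10-/- replicates 1, 2 or 3, at limma adjusted p of 0.0535 to 0.0732. It was also lost with 2 means per genotype (0.21) and without a trend in the variance prior (0.0888).

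Tsc2 encodes the GTPase-activating subunit of the same complex and a substrate of AMPK. Its values were 7.02, 6.99, 7.29 and 7.39 log2 CPM in wild-type and 7.06, 6.75, 6.81 and 6.63 in Cox10-/-. Only Cox10-/- replicate 1 lay within the wild-type range. The change of -0.36 ± 0.12 (95% interval -0.62 to -0.1) did not pass (limma adjusted p = 0.0631). The first set gave -0.1 and the second set -0.62, and Tsc2 passed with a term for the 2 sets (0.0437), without wild-type replicate 2 (0.0433) or when Cox10-/- replicate 1 was left out (0.0312).

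The start regions of the called members are shown because they differ in composition. They are the 250 bases before the RefSeq transcription start on GRCm38.p6, 5′ to 3′ on the gene's strand, with capitals for the GC box (GGGCGG or CCGCCC), a motif of Sp1 family factors. The Tsc1 window is chr2:28640983-28641232 on the plus strand and the Prkab2 window chr3:97657962-97658211 on the plus strand.
Tsc1: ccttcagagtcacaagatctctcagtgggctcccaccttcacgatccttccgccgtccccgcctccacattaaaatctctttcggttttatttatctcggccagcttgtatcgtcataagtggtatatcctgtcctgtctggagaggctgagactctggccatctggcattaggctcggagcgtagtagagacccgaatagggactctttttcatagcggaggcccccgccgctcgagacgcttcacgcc
Prkab2: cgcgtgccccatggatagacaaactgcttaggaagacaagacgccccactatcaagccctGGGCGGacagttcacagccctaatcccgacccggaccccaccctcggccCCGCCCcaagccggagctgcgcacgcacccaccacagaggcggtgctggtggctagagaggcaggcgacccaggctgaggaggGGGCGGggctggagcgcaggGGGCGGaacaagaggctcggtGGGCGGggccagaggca
The Prkab2 window holds 5 GC boxes, at 190, 141, 58, 38 and 17 bases before the start, and is 69.2% G and C. The Tsc1 window holds no GC box and is 54.4% G and C. Over all 32851 windows of this length 32.7% hold a GC box, and 7 of the 12 windows of the members do, from 6 genes (Mtor, Prkaa1, Prkaa2, Prkab2, Prkag1 and Prkag2). None of the 12 holds CACGTG (an E-box that MiT/TFE factors can bind, but not only they), GTAAACA (a FoxO motif, or TGTTTAC) or TGACGTCA (the cyclic AMP response element). In that order they are found in 6.02%, 3.17% and 1.55% of all windows on either strand. These are matches of letters and not sites of binding.

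**Figure D2:**
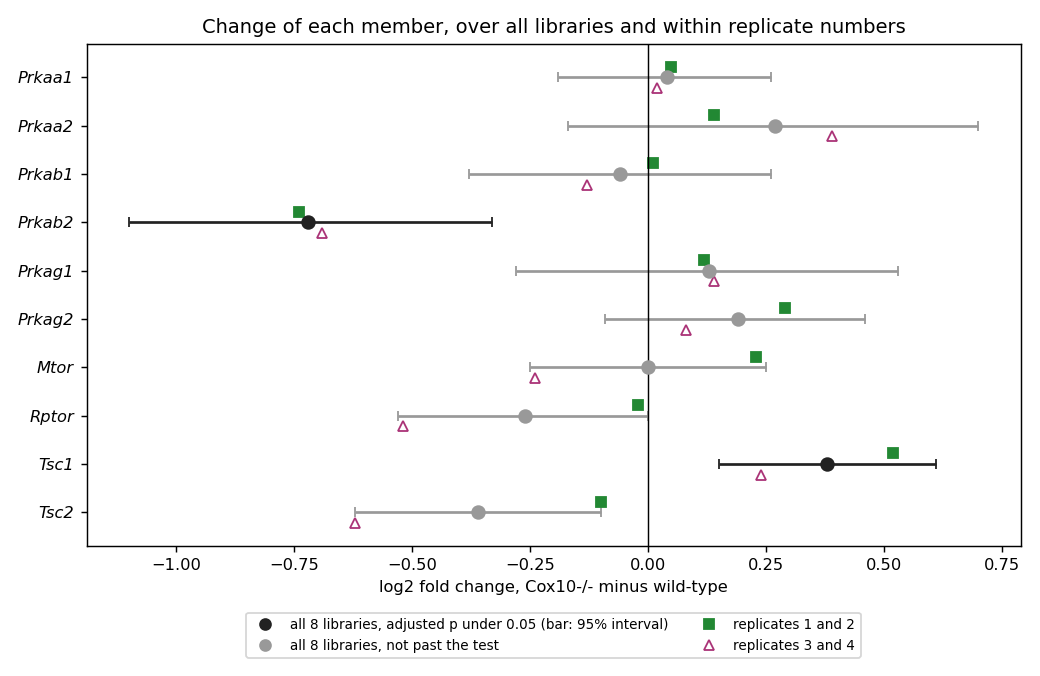
Change of each gene on the x axis, as log2 fold change of Cox10-/- minus wild-type: circles with 95% intervals use all 8 libraries (black where the adjusted p is under 0.05), squares replicates 1 and 2 and triangles replicates 3 and 4. Prkab2 lies at -0.72, with both sets close to it, and Tsc1 at 0.38, while for Rptor and Tsc2 the difference in replicates 3 and 4 lies further below 0 than that in replicates 1 and 2.

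The catalytic subunits showed no call. Prkaa1, the gene of α1, was at 6.48, 6.21, 6.38 and 6.52 log2 CPM in wild-type and at 6.28, 6.52, 6.46 and 6.47 in Cox10-/-, which overlap fully. Its change was 0.04 ± 0.1 (95% interval -0.19 to 0.26, limma adjusted p = 0.852), an interval that leaves out a change of the size of Prkab2. Prkaa2, the gene of α2, the isoform that prevails in muscle fibres, was at 4.06, 4.48, 4.07 and 3.63 log2 CPM in wild-type and at 4.32, 4.49, 4.39 and 4.1 in Cox10-/-. Its change of 0.27 ± 0.2 (95% interval -0.17 to 0.7, limma adjusted p = 0.406) rests on 29 to 98 reads per library.

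The γ subunits, which bind adenine nucleotides, also gave no call. Prkag1 was at 4.22, 3.65, 4.01 and 4.14 log2 CPM in wild-type and at 4.16, 3.94, 4.32 and 4.1 in Cox10-/-, with 27 to 77 reads per library. Prkag2 was at 5.85, 5.45, 5.76 and 5.88 log2 CPM in wild-type and at 6.09, 5.79, 6.02 and 5.78 in Cox10-/-. Both pairs of groups overlapped, with changes of 0.13 ± 0.19 for Prkag1 (limma adjusted p = 0.695) and 0.19 ± 0.13 for Prkag2 (0.359).

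Mtor, the kinase of both mTOR complexes, had nearly the same mean in the 2 genotypes. It was at 7.49, 7.13, 7.51 and 7.54 log2 CPM in wild-type and at 7.54, 7.54, 7.38 and 7.2 in Cox10-/-, 99.8% of wild-type (95% interval of the change -0.25 to 0.25, limma adjusted p = 0.991). The differences within the sets were opposite, 0.23 for the first and -0.24 for the second. Rptor encodes Raptor, the subunit that recruits substrates to mTORC1 and that AMPK phosphorylates. It was at 7.27, 6.96, 7.44 and 7.36 log2 CPM in wild-type and at 7.04, 7.16, 7.0 and 6.77 in Cox10-/-. Wild-type replicates 1, 3 and 4 lay above all Cox10-/- libraries, and wild-type replicate 2 lay below 3 of them. The change of -0.26 ± 0.12 did not pass (limma adjusted p = 0.155), came to -0.02 in the first set but -0.52 in the second set, and passed without wild-type replicate 2 (0.0401).

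Paired members were also compared within each library, where scaling to the library cancels. The log2 CPM of Tsc1 minus that of Tsc2 was 0.0, -0.08, -0.15 and -0.52 in wild-type and 0.5, 0.66, 0.52 and 0.53 in Cox10-/-. The genotypes were apart in every library, with means of -0.19 ± 0.23 and 0.55 ± 0.07 (SD, n = 4) and a difference of 0.74. The exact two-sided permutation p was 0.0286, the smallest that 70 assignments allow, and 0.0714 after Benjamini-Hochberg adjustment over the 5 balances computed, so it did not pass. Mtor minus Rptor was 0.22, 0.17, 0.07 and 0.18 in wild-type and 0.5, 0.38, 0.38 and 0.43 in Cox10-/-. These too did not overlap, with a difference of 0.26 (exact permutation p = 0.0286, adjusted 0.0714). Of all single genes tested 21.1% did not overlap, and the share among other gene pairs was not computed. Both pairs stood at the smallest possible p, so no larger difference in them could have lowered the adjusted value. The adjusted p thus cannot decide for either pair. By set the differences were 0.62 and 0.86 for the TSC pair and 0.24 and 0.28 for the mTORC1 pair.

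The AMPK balances overlapped between genotypes. Prkab1 minus Prkab2 was -2.48, -2.87, -2.05 and -1.79 in wild-type and -2.05, -1.8, -1.13 and -1.58 in Cox10-/-, a difference of 0.66 (exact permutation p = 0.143, adjusted 0.238). Prkaa1 minus Prkaa2 averaged 2.34 ± 0.48 and 2.11 ± 0.18 (SD, n = 4; exact permutation p = 0.4), and Prkag1 minus Prkag2 -1.73 ± 0.07 and -1.79 ± 0.12 (exact permutation p = 0.457).

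**Figure D3:**
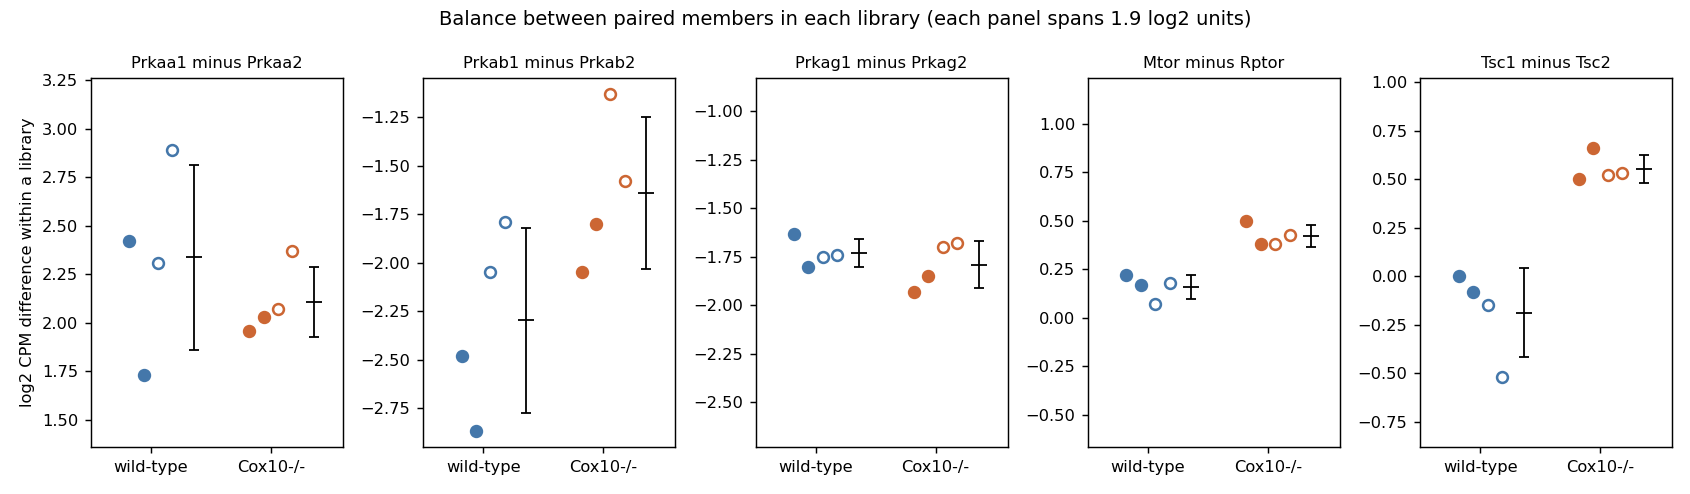
Difference in log2 CPM between paired members within each library on the y axis; filled points are replicates 1 and 2, open points replicates 3 and 4, and bars are the mean and SD over 4 libraries. The wild-type and Cox10-/- libraries are apart for Tsc1 minus Tsc2 and for Mtor minus Rptor, and overlap in the 3 AMPK panels. How often other gene pairs lie apart was not computed.

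Levels of different genes were compared per length, as CPM per kilobase of exon. In wild-type cells Prkab2 had the highest value, 36 ± 8.18 (SD, n = 4). Rptor (23.4 ± 3.23), Tsc2 (22.9 ± 3.16), Mtor (19.6 ± 2.45), Prkaa1 (18.2 ± 1.69), Prkab1 (16.9 ± 1.83), Tsc1 (16.4 ± 1.4) and Prkag2 (13.7 ± 1.77) followed. The lowest Prkab2 library, at 26.7, lay just above the highest Rptor library, at 26.3, and from Rptor to Tsc1 the range of each gene overlapped that of the next. The lowest Tsc1 library and the highest Prkag2 library were both at 15.1. Prkag1 stood at 9.83 ± 1.61, its highest library reaching 11.3 and the lowest of Prkag2 11.2, and Prkaa2 at 2.14 ± 0.511. In Cox10-/- cells Prkab2 was at 21.8 ± 4.67, beside Tsc1 at 21.4 ± 2.46, Mtor at 19.5 ± 2.13, Rptor at 19.4 ± 2.13, Prkaa1 at 18.6 ± 1.31 and Tsc2 at 17.8 ± 2.31 CPM per kilobase.

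By the same measure the α transcripts were mostly α1, and the β transcripts mostly β2. Prkaa1 made up 89.3 ± 3.19% of the α transcripts in wild-type and 88 ± 1.27% in Cox10-/- (SD, n = 4). Prkab2 made up 70.4, 75.7, 63.8 and 59.6% of the β transcripts in wild-type and 63.8, 59.8, 48.3 and 56% in Cox10-/-. Its share was the larger one in every library except Cox10-/- replicate 3. Of the γ transcripts Prkag2 held 56 ± 0.981% and 56.4 ± 1.53%, Prkag1 39.9 ± 1.57% and 38.6 ± 2.4%, and Prkag3, the gene of the γ isoform of fast muscle fibres, 4.01 ± 1.43% and 5.05 ± 1.8%. The lengths come from a GENCODE annotation of another build than the authors' mm9, so the shares depend on the transcripts assumed.

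**Figure D4:**
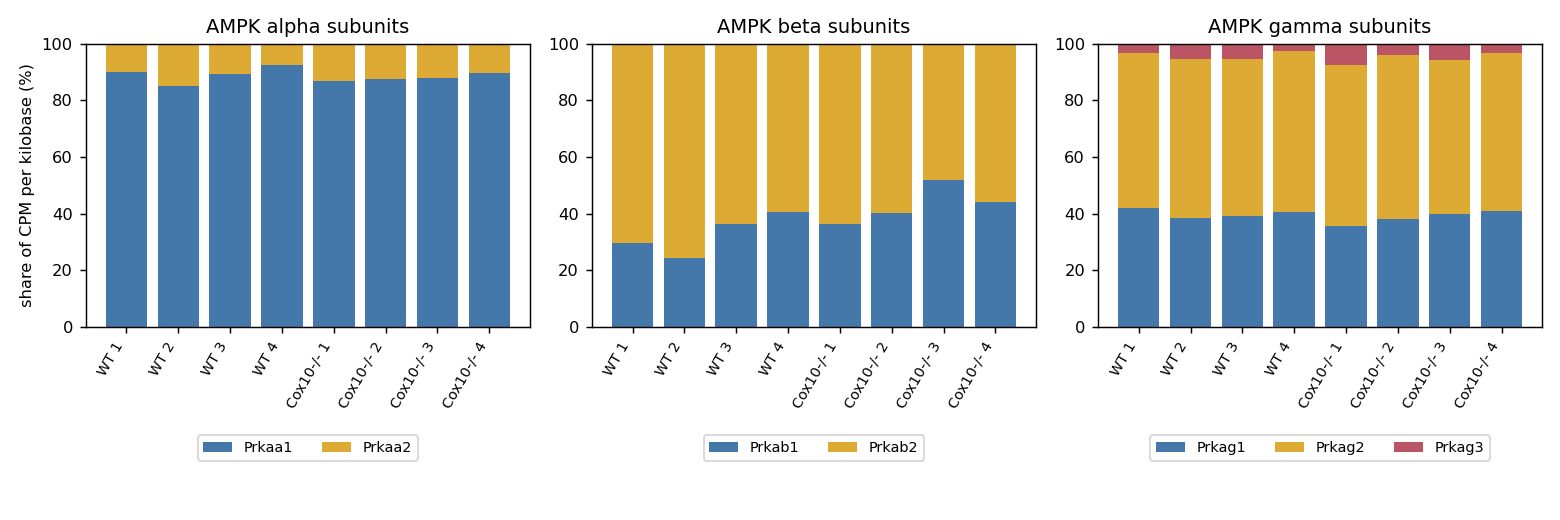
Share of each subunit gene in the summed CPM per kilobase of its family, in percent on the y axis, for each library on the x axis (WT is wild-type). The α and γ shares vary less between libraries than the β shares, and the Prkab2 share runs from 48.3% in Cox10-/- replicate 3 to 75.7% in wild-type replicate 2.

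Around the core, 9 lists with 128 genes of the pathway were described from the same fit, of which 125 were tested. A total of 17 rose and 8 fell, 20% against the 16.1% of all genes. The number called was 10 genes without a trend in the variance prior, 6 with 2 means per genotype and 39 with a term for the sets.

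Substrates and effectors of mTORC1 had 5 rises and 1 fall of 17 (35.3%, median change 0.3). Mitf, a transcription factor of the MiT/TFE family that mTORC1 holds in the cytoplasm, was at 5.27, 4.85, 5.14 and 5.2 log2 CPM in wild-type and at 6.52, 6.26, 6.74 and 6.73 in Cox10-/-. Every Cox10-/- library was more than a log2 unit above the wild-type mean, and Mitf rose by 1.45 ± 0.14 (limma adjusted p = 4e-05), to 273% of wild-type. Its relatives did not pass, Tfeb at -0.12 ± 0.17 and Tfe3 at -0.09 ± 0.15. Lpin1, a phosphatidate phosphatase that restrains sterol gene expression when mTORC1 is low, was at 5.91, 6.1, 6.26 and 6.11 log2 CPM in wild-type and at 7.03, 7.46, 7.31 and 7.35 in Cox10-/-. It rose by 1.19 ± 0.11 (limma adjusted p = 4e-05), with no overlap. Both kept their call in all 8 fits without 1 library and with 2 means per genotype.

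The kinase that starts autophagy, Ulk1, a substrate of both AMPK and mTORC1, was at 7.46, 7.62, 7.54 and 7.52 log2 CPM in wild-type and at 8.03, 8.1, 7.97 and 7.91 in Cox10-/-, with no overlap. It rose by 0.47 ± 0.08 (limma adjusted p = 0.00226) and lost its call with 2 means per genotype (0.0991). Its partner Atg13 rose by 0.52 ± 0.15. Uvrag, an autophagy and endosome protein named after its values were seen, rose by 0.41 ± 0.12. The calls of Atg13 and Uvrag failed in 4 and 5 of the 8 fits that leave out 1 library, with 2 means per genotype and without a trend in the variance prior, and that of Uvrag also without the 2 shallowest libraries. Grb10, an adaptor that dampens insulin receptor signalling, fell by 0.45 ± 0.11 and was not called after median centring (limma adjusted p = 0.176). Its call was also lost without a trend in the variance prior (0.0656) and with 2 means per genotype (0.152). The translation arm of mTORC1 gave no call: the S6 kinase gene Rps6kb1 was at 0.06 ± 0.1, Rps6 at -0.2 ± 0.16, and the translation repressor Eif4ebp1 at 0.38 ± 0.14 (limma adjusted p = 0.0803).

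AMPK substrates had 5 rises and no fall of 21 (23.8%, median change 0.13). Ppargc1a, a coactivator of mitochondrial genes, was at 5.37, 5.57, 5.09 and 4.92 log2 CPM in wild-type and at 6.08, 6.24, 5.81 and 6.13 in Cox10-/-, with no overlap, and rose by 0.83 ± 0.15. Ulk1, also in the list above, had the smallest p of these substrates, followed by Ppargc1a. Lipe, hormone-sensitive lipase, rose by 0.5 ± 0.14, Crtc2, a coactivator of CREB, by 0.41 ± 0.12, and the histone deacetylase gene Hdac5 by 0.33 ± 0.1. The acetyl-CoA carboxylase gene Acaca, whose enzyme is the classic AMPK substrate, was at -0.1 ± 0.14. The calls of Lipe, Crtc2 and Hdac5 did not hold in 6, 6 and 7 of the 8 fits that leave out 1 library. They were also lost without a trend in the variance prior and with 2 means per genotype.

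The kinases upstream of AMPK, with Prkag3, gave no call among 9 (median change 0.1). Stk11, the gene of LKB1, was at 0.15 ± 0.08 (limma adjusted p = 0.238). Camkk1, a calcium-dependent kinase of the same tier, had the smallest p, with a change of -0.95 ± 0.34 (0.0747) that came to -0.43 in the first set but -1.48 in the second set. It passed with a term for the sets (0.0323) and without wild-type replicate 1 (0.0457). Of 13 AMPK-related kinases, which LKB1 or other kinases activate, Sik3 rose by 0.28 ± 0.08 and Brsk1 fell by 0.68 ± 0.19, 15.4% called. Each of these calls failed in 5 of the 8 fits that leave out 1 library, and that of Sik3 after median centring (limma adjusted p = 0.066). Both were also lost without a trend in the variance prior and with 2 means per genotype, and that of Sik3 without the 2 shallowest libraries.

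Of 13 genes of the arm that brings mTORC1 to the lysosome in response to amino acids, Flcn and Rragc rose (15.4%, median change 0.12). Flcn encodes folliculin, which activates RagC and RagD, and was at 6.09, 6.1, 6.28 and 6.19 log2 CPM in wild-type and at 6.84, 6.44, 6.54 and 6.44 in Cox10-/-. It rose by 0.4 ± 0.11 (limma adjusted p = 0.0294). Rragc, the gene of RagC, was at 6.03, 5.93, 6.18 and 6.11 log2 CPM in wild-type and at 6.24, 6.42, 6.48 and 6.63 in Cox10-/-, and rose by 0.38 ± 0.11 (0.0336). Neither overlapped between genotypes. The calls failed in 5 and 6 of the 8 fits that leave out 1 library, and that of Rragc also without the 2 shallowest libraries. Both were lost without a trend in the variance prior and with 2 means per genotype. The partner Rraga was at -0.34 ± 0.11 (limma adjusted p = 0.0593), and Rragd at -0.07 ± 0.14.

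Flcn and Rragc are known targets of MiT/TFE factors, and the part of these factors in their rise was not tested. Their start regions are shown with the E-box CACGTG, the cyclic AMP response element and the GC box in capitals. The Rragc window is chr4:123917183-123917432 on the plus strand and the Flcn window chr11:59810040-59810289 on the minus strand of GRCm38.p6, from RefSeq.
Rragc: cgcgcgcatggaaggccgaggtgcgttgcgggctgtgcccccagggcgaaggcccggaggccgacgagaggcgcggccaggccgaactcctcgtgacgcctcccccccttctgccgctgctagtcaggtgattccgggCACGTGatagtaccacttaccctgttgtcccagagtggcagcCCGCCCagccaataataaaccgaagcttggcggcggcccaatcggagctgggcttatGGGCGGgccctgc
Flcn: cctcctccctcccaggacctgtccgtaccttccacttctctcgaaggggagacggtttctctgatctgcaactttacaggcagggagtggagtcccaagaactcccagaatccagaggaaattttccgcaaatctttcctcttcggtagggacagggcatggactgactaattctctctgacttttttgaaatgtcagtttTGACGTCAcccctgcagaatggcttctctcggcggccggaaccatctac
Rragc holds CACGTG at 112 bases before the start and GC boxes at 70 and 13, and Flcn holds TGACGTCA at 49 bases and no CACGTG. Of the 25 called pathway genes 23 had a window by symbol, and 3 of these held CACGTG (Lipe, Rragc and Sik3). The FoxO motif was held by 2 of the 23, TGACGTCA by 2 and the GC box by 17. A gene counts here if any of its windows holds the motif. The shares of all windows given above count single windows and are not a like measure.

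Among 16 tested genes of the GATOR complexes and nutrient sensors, Sesn1 rose and Sec13 fell (12.5%, median change -0.09). Sesn1, a sestrin that inhibits mTORC1 through GATOR2, was at 6.76, 6.68, 6.86 and 7.02 log2 CPM in wild-type and at 7.12, 7.3, 7.51 and 7.76 in Cox10-/-. It rose by 0.59 ± 0.13 (limma adjusted p = 0.0103) with no overlap. Sec13, which serves GATOR2, the COPII coat and the nuclear pore, was at 5.83, 5.75, 5.88 and 5.84 log2 CPM in wild-type and at 5.24, 5.44, 5.33 and 5.22 in Cox10-/-, and fell by 0.52 ± 0.11 (0.00672). Both kept their call in all 8 fits without 1 library and lost it with 2 means per genotype (0.0857 and 0.147). The other sestrins gave no call, Sesn2 at 0.31 ± 0.18 and Sesn3 at 0.15 ± 0.13.

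Of 12 genes of Rheb and the inputs to the TSC complex, 2 rose (16.7%, median change -0.02). Ddit4, which encodes REDD1, a stress-induced inhibitor of mTORC1 that acts through TSC, rose by 0.47 ± 0.13 (limma adjusted p = 0.0303), and was not called after median centring (0.0609). Its call also failed in 4 of the 8 fits that leave out 1 library, those without wild-type replicates 1 or 3 or Cox10-/- replicates 3 or 4 (up to 0.0887), without a trend in the variance prior (0.0901) and with 2 means per genotype (0.169). Rheb was at -0.29 ± 0.13 and Tbc1d7, the third subunit of the TSC complex, at -0.73 ± 0.3, and neither passed. Of 10 other subunits and assembly factors of the mTOR complexes 2 fell (20%, median change -0.18). Mapkap1, an mTORC2 subunit, fell by 0.53 ± 0.14, and Telo2, a chaperone of the mTOR kinase family, by 0.68 ± 0.18. Their calls failed in 5 and 4 of the 8 fits with a library left out, without a trend in the variance prior and with 2 means per genotype. The mTORC2 gene Rictor was at 0.22 ± 0.1 and the mTOR inhibitor Deptor at -0.05 ± 0.1.

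Transcripts that mTORC1 is known to promote went both ways, with 2 rises and 3 falls of 18 (27.8%, median change -0.2). Psat1, of serine synthesis, fell by 1.12 ± 0.21, and the sterol regulator Srebf2 by 0.7 ± 0.12. Srebf2 was at 8.06, 8.09, 7.72 and 7.8 log2 CPM in wild-type and at 7.44, 7.3, 7.14 and 6.97 in Cox10-/-, lower in every library. Its target Hmgcs1 fell by 0.7 ± 0.2. Hexokinase 2, Hk2, rose by 0.79 ± 0.17, and the amino acid transporter subunit Slc3a2 by 0.38 ± 0.1. Psat1, Srebf2 and Hk2 kept their call in all 8 fits without 1 library and with 2 means per genotype, and Hmgcs1 and Slc3a2 did not, nor after median centring (limma adjusted p = 0.095 and 0.0595).

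**Figure D5:**
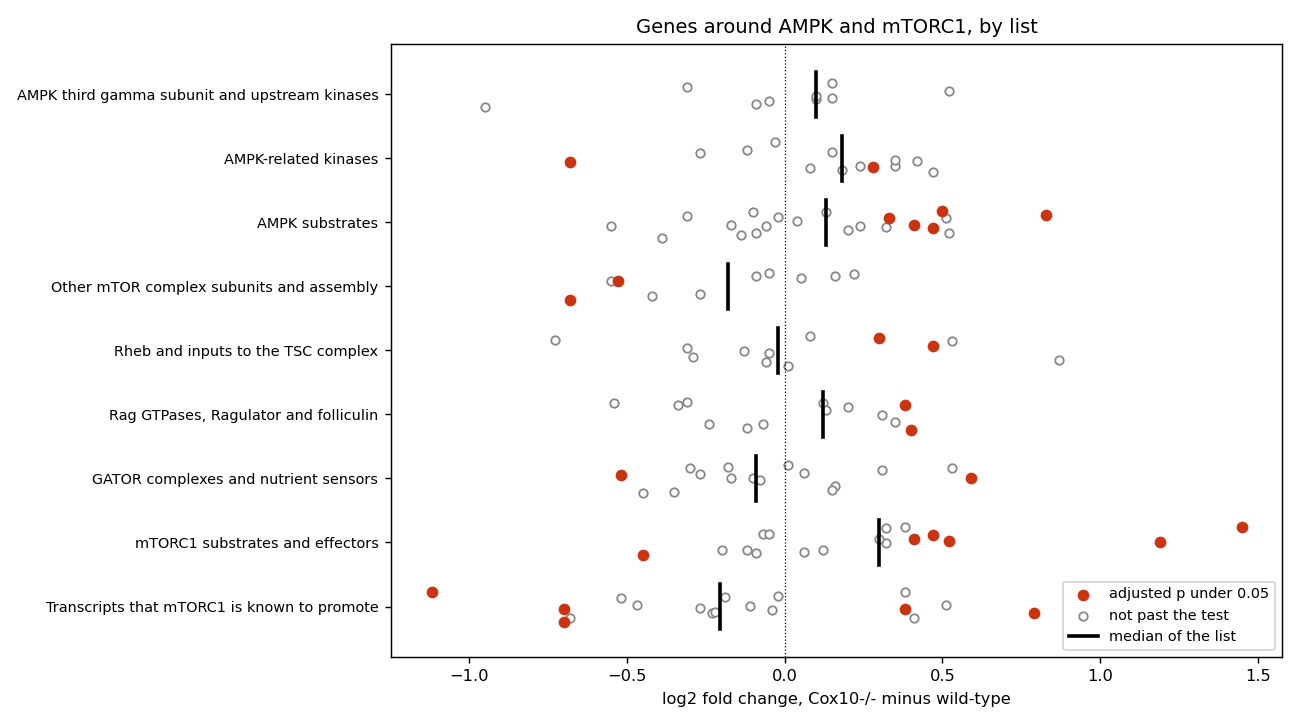
Log2 fold change of each tested gene, Cox10-/- minus wild-type, on the x axis, by list on the y axis; red points passed the test and black bars are list medians. Mitf at 1.45 and Lpin1 at 1.19 lie apart from the other mTORC1 substrates, and the 5 called AMPK substrates all lie above 0.

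The genes whose level was most like that of Prkab2 over the 8 libraries, among 9404 others with a mean of at least 4 log2 CPM, were Osgin1 (Pearson r = 0.99), Lysmd3 (0.988), Piezo1 (0.987), Tshz3 (0.986) and Flnc (0.985). Piezo1 encodes a mechanically gated ion channel and Flnc a filamin of muscle. The 8 points share the difference between genotypes and the higher values of replicates 1 and 2, and the correlations are given as a description. Osgin1, for one, ran from 6.66 to 7.54 log2 CPM in wild-type and from 5.68 to 6.45 in Cox10-/-.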

How the data were processed

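RNA was measured in 4 wild-type and 4 Cox10-/- libraries. Libraries came from total RNA with a low-input kit that keeps the strand, per the labels' protocols. The values are log2 CPM as deposited by the authors. Trim Galore, HISAT2, featureCounts, DESeq2 and mm9 are named in the submitters' processing notes, with no versions, and how strand was counted is not given in the sources used here. Columns sum to 994685 to 996164 CPM, values are rounded to 2 decimals, and a CPM of 1 or less stands at 0. The table has 17847 genes, 1054 rows without a gene, and 1 column of means that was not used. Low values (up to 20 reads) were whole reads within 0.1 in 100% of cases, which gave the depth. The members take 27 to 848 reads per library.

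Genotypes were compared on the log2 values with limma 3.58.1 (R 4.3.3), with no pseudocount, a variance prior trended on the mean, and Benjamini-Hochberg adjustment over 17801 genes above 0 in at least 4 libraries (46 removed), at a threshold of 0.05. The functions were tested on simulated data, where 14% of 50 genes changed by 0.5 log2 units were called, 76% at 1 and 100% at 2. Far fewer genes were changed there than the 2863 called in the data, which makes the adjustment stricter in the simulation. These shares therefore do not measure the chance of a call in the data. A gene that did not pass may still have changed by a small amount. Balances used exact permutation. Planned count-model tests could not be used on log2 values, and limma-voom on recovered reads replaced them. Exon lengths are unions of GENCODE M21 basic coding transcripts, and start regions are RefSeq's on GRCm38.p6; all 10 members matched. Named genes were the members, Cox10, markers, and per list up to 5 called genes by p (or the first by p where none was called). Other genes given as values that did not pass were chosen after their values were seen, as were the motifs. The values of 1 called gene are not reported here. The members and lists were chosen with earlier results of these data known. Samples with the same replicate number did not deviate together throughout (correlations 0.045 to 0.137).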

Additional observations from a re-analysis of the deposited data

Results flagged for a closer look

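In 4 cases 1 library stood far from the other 3 of its genotype, by Dixon's gap ratio at the 95% level, among 74 groups of 4 examined, where chance gives about 1 in 20. Mtor was lowest in wild-type replicate 2, at 7.13 log2 CPM against 7.49 to 7.54 in the others. Cox10 was lowest in Cox10-/- replicate 4, at 2.05 against 3.49 to 3.69. Sik3 was highest in wild-type replicate 3, at 7.78 against 7.62 to 7.64, and Psat1 lowest in Cox10-/- replicate 4, at 4.19 against 4.43 to 4.46. Wild-type replicate 2 and Cox10-/- replicate 4 had the fewest reads of their genotypes, 2148645 and 1693349, and the part of depth in these values was not tested.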

How the results depend on the processing

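Alternatives were no filter, a mean of at least 1, log2(CPM + 1), median centring, no trend in the variance prior, a replicate block, a term for replicates 1 and 2 against 3 and 4, 2 means per genotype and leaving out each library. Limma-voom on recovered reads and leaving out the 2 shallowest libraries were added after the data were seen, and the 2 planned count-model tests were not run. Genes called numbered 2863, from 1840 to 2907 without 1 library (1902 without wild-type replicate 1, 1840 without Cox10-/- replicate 3). They numbered 858 with 2 means per genotype, 3144 with voom and 3838, the most, with the term for replicate sets. Higher calls were 47.1% of the 2863, and 58.4% of the calls after median centring. Members called numbered 2, from 0 to 3 without 1 library (0 without wild-type replicate 1 or Cox10-/- replicate 3), 0 without a trend, 0 with 2 means and 1 without the 2 shallowest libraries. Pathway genes called numbered 25, from 13 to 21 without 1 library (13 without wild-type replicate 1 or Cox10-/- replicate 3, 15 without wild-type replicate 4), 10 without a trend, 6 with 2 means and 39 with the term for replicate sets. The cause was not tested.

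Changes near 0 turned sign. Prkaa1 was -0.04 without the 2 shallowest libraries and -0.0275 to 0.0858 without 1 library. Prkab1 was 0.0225 after median centring and -0.155 to 0.015 without 1 library. Mtor was 0.08 after median centring, 0.0012 with voom and -0.0983 to 0.0692 without 1 library. Of 27 named genes called, 10 kept their call in all 8 fits without 1 library and 6 with 2 means per genotype, while 18 lost it without a trend, 6 after median centring, 5 without the 2 shallowest libraries and 1 with voom, and none changed direction. Cox10 was not called in any fit.

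With the replicate number as a block, 3201 genes were called, and all 27 named calls held. The numbers are not shown to pair samples: 2 of 4 wild-type libraries deviated most like the Cox10-/- library of their own number. Correlations of wild-type with Cox10-/- deviations ran from -0.024 to 0.165 within a set and from -0.215 to 0.025 across sets. What the libraries of a set share across genotypes was not tested. Paired sign flips of the balances cannot go below 0.125.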
